A study of Mus musculus with 10 samples.

Results

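Microvillus structure genes are described here in sorted cells of the mouse small intestine. The 10 genes, Vil1, Ezr, Espn, Pls1, Myo1a, Myo7b, Cdhr2, Cdhr5, Ush1c and Eps8, were chosen by name for their roles in the actin core, the membrane link and the tip adhesions of microvilli, and they are 10 of the 54532 genes listed. The study asked how cells with very high GUCY2C, the receptor guanylyl cyclase of the intestinal epithelium, differ from the bulk of epithelial cells. RNA came from Gucy2c-GFP mice of the CD1/ICR stock, 10 weeks old and litter matched, in which the Gucy2c promoter drives GFP, and no mouse received an agent. Live single cells of each of 5 mice were sorted by fluorescence, and 20000 cells of the bright gate (GUCY2Chi) and 20000 of the medium gate (GUCY2Cmed) gave 1 library each, so that both groups share genotype, stock and age. Libraries bear the numbers 2, 7, 12, 14 and 15 in both groups, read here as mouse numbers. The gates follow a reporter and not a cell type, and each library is a bulk sample in which fewer cells of a type and less RNA per cell cannot be told apart.

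Between 13090212 and 13520800 reads were counted on genes in the GUCY2Chi libraries and between 10903958 and 15307932 in the GUCY2Cmed libraries. Levels are TMM-normalized cpm, counts scaled to the size of the library. Gucy2c itself ranged from 549 to 1757 cpm in GUCY2Chi and from 323 to 483 cpm in GUCY2Cmed cells. The 24 enteroendocrine markers were all higher in GUCY2Chi cells, where they summed to 44384 to 176192 cpm against 159 to 487 cpm. The 24 enterocyte markers summed to 3944 to 36841 cpm in GUCY2Chi and to 66485 to 87358 cpm in GUCY2Cmed cells, with 6 called lower, 23 lower at an unadjusted p under 0.05 and 0 higher. Of 15 proliferation genes 12 were lower in GUCY2Chi cells (133 to 337 cpm in sum against 419.7 to 963 cpm). Of 14 tuft cell genes tested Sh2d6 and Cd300lf were called higher (the list summed to 45.3 to 96.2 cpm against 20.7 to 31.5 cpm), and of 8 genes tested of mesenchyme and blood Col1a2 and Pecam1 were (13.5 to 79.0 cpm against 4.89 to 34.1 cpm). Cd300lf, Col1a2 and Pecam1 passed the filter on low counts only through GUCY2Chi libraries, which fixed their direction. Beside these counts, 8.79% of all genes tested were called lower and 13.9% higher. The 2 of 14 tuft cell genes called higher stand near that second share. No goblet, Paneth or forebrain neuron gene passed in either direction, of 8, 7 and 14 tested. These ranges overlapped for goblet (3059.7 to 23487 cpm against 4922 to 13119 cpm), Paneth (6459 to 46387 cpm against 6789 to 16145 cpm) and forebrain neuron genes (192 to 1726 cpm against 132 to 1002 cpm). The part that this cell makeup has in the results was not tested.

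A microvillus is a finger of plasma membrane around a core of parallel actin filaments, and the dense array of them on an enterocyte forms the brush border, the surface for digestion and absorption. Villin, espin and plastin 1 bundle the core, ezrin and myosin 1A tie it to the membrane, and EPS8 sits at the tip. Neighbouring tips are joined by the cadherins CDHR2 and CDHR5, whose tails are held by the scaffold harmonin (Ush1c) and the motor myosin 7B. Enteroendocrine cells also carry microvilli at a narrower apex.

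Promoter windows from RefSeq (GRCm38.p6), from 250 bases before to 50 after a start, were found for 8 of the 10 genes. Both strands were searched for 3 motifs of intestinal transcription factors. The 8 genes had 10 windows. The letters CAAAGT, the shared core of HNF4 sites, occurred in 1 of the 10 (Cdhr2) and in 14.4% of all 32851 windows. TTTATG, a CDX site, occurred in 2 of the 10 windows (Cdhr5 and 1 of 3 of Espn) and in 11.9% of all windows. The GATA motif GATAA occurred in 0 of the 10 and in 25.4% of all windows. A match of letters is a description and not a site. The 120 bases before the start are shown for the pair of adhesion cadherins, each with 1 match in capitals, and for Vil1, the reference of the ratios given later, with none. The Cdhr2 stretch is chr13:54701343-54701462 on the plus strand, that of Cdhr5 is chr7:141276787-141276906 on the minus strand, and that of Vil1 is chr1:74409264-74409383 on the plus strand, each written from 5′ to 3′ toward the gene.
Cdhr2: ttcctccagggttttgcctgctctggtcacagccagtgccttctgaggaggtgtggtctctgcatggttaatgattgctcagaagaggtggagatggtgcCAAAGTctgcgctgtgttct
Cdhr5: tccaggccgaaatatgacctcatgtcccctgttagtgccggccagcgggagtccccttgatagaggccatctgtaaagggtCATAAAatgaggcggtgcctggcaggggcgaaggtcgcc
Vil1: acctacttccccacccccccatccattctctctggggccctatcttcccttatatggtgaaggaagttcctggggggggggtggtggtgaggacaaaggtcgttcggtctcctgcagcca
The capitals in Cdhr2 are the HNF4 letters, whose first base lies at -20 from the start. Those in Cdhr5 are the CDX letters read on the other strand, with the first base at -39.

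All 10 genes had a lower mean level in GUCY2Chi than in GUCY2Cmed cells, and each was lower in GUCY2Chi cells of every one of the 5 mice. Of the 10, 6 (Vil1, Ezr, Espn, Myo1a, Cdhr2 and Eps8) fell past an adjusted p of 0.01 in edgeR's quasi-likelihood test over 15703 genes, and 0 rose. Over all genes tested, 8.79% were called lower and 13.9% higher. At an unadjusted p under 0.05 all 10 were lower. For 8 of the 10, every GUCY2Chi library lay below every GUCY2Cmed library, as for 13.2% of all genes tested. The median log2 fold change of the 10 was -1.11, against 0.09 over all genes tested. Without mice 12 and 15, whose GUCY2Chi libraries held the most enterocyte transcript, 5 of the 10 were called lower, against 10.7% of all genes tested. With the mouse as a replicate block 5 were also called lower, against 4.96% of all genes, and without the GUCY2Chi library of mouse 7 the count was 3, against 3.8% of all genes. On library sizes alone, without TMM, the median of all genes moved to 0.39, that of the 10 genes to -0.82, and their count to 3, against 3.55% of all genes, while lower calls made up 16.1% of all calls in place of 38.7%. All 10 genes passed the filter on low counts through both groups, since the lowest value of any of them was 14.8 cpm.

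**Figure D1:**
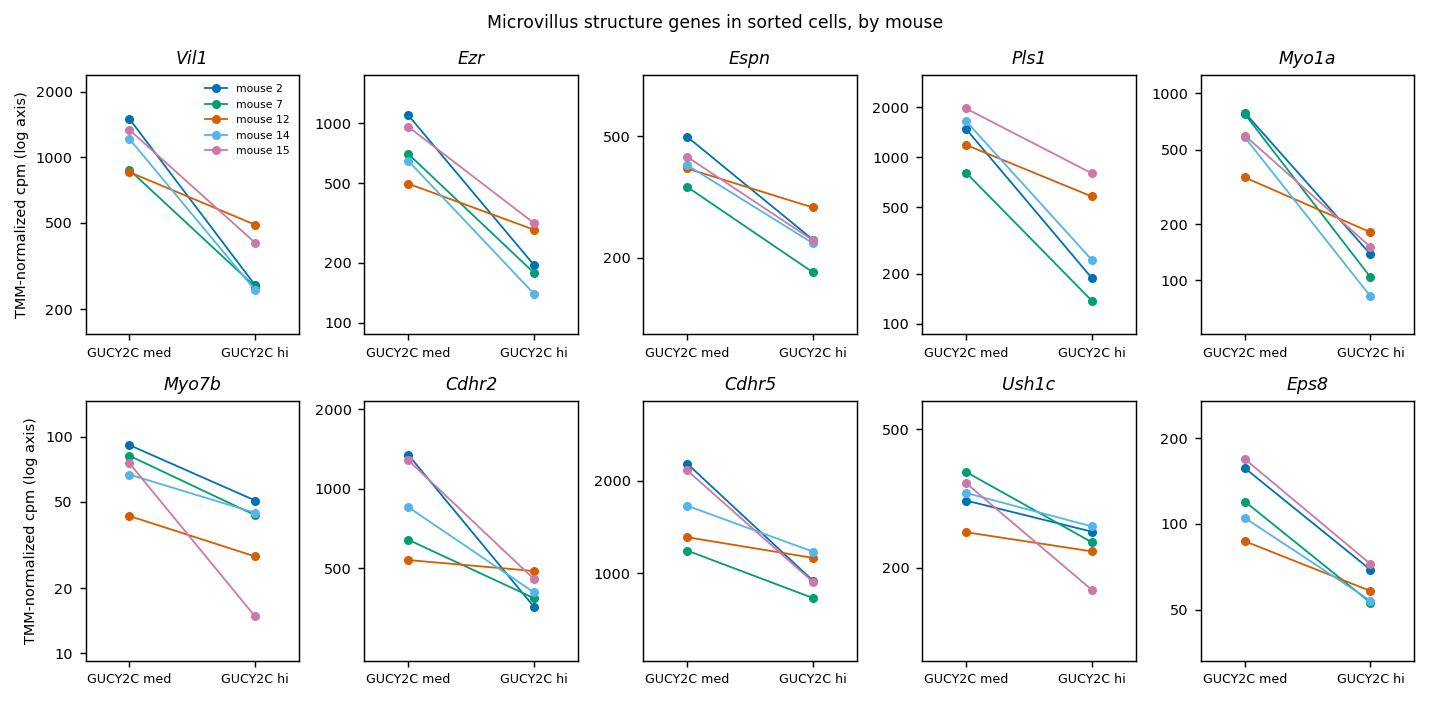
TMM-normalized cpm (log axis) of each of the 10 microvillus genes in GUCY2Cmed and GUCY2Chi cells, with a line joining the 2 libraries of each mouse. Every line falls from left to right, and those of mice 12 and 15 end highest for Vil1, Ezr, Pls1, Myo1a and Cdhr2.

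Among the actin bundlers, Vil1, which encodes villin, a protein that bundles and severs actin (chromosome 1, 74409376 to 74435559), was at 258, 254, 489, 245 and 404 cpm in GUCY2Chi cells of mice 2, 7, 12, 14 and 15, and at 1497, 873, 853, 1211 and 1333 cpm in GUCY2Cmed cells. The groups did not overlap, and the GUCY2Chi libraries of mice 12 and 15 were the highest of their group. The means were 329.9 ± 111 cpm and 1153 ± 284 cpm (SD, n = 5 each), a 3.50-fold difference and a log2 fold change of -1.81 (standard error 0.28, edgeR adjusted p = 0.000679). Pls1, which encodes plastin 1, the fimbrin of the intestinal core (chromosome 9, 95752642 to 95845311), was at 189, 138, 583, 243 and 804 cpm in GUCY2Chi cells of the same mice and at 1484, 810, 1190.1, 1654 and 1968 cpm in GUCY2Cmed cells. The groups were separated by little, the GUCY2Chi library of mouse 15 standing just under the GUCY2Cmed library of mouse 7. The log2 fold change of Pls1 was -1.86 (standard error 0.48, edgeR adjusted p = 0.0108), which missed the threshold. With the mouse as a replicate block its adjusted p was 0.00756, without the GUCY2Chi library of mouse 15 it was 0.00268, and without mice 12 and 15 it was 0.00106 at a log2 fold change of -2.80. Without any other 1 library Pls1 missed the threshold again (edgeR adjusted p from 0.0107 to 0.0389). It also missed on library sizes alone (adjusted p = 0.0216).

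Espn, which encodes espin, a bundler that lengthens the core (chromosome 4, 152120331 to 152152371), was at 229, 179, 292, 223 and 228 cpm in GUCY2Chi cells and at 498, 341, 392, 402 and 428 cpm in GUCY2Cmed cells. The 2 groups did not overlap, and the GUCY2Chi library of mouse 12 was the highest of its group. Its log2 fold change of -0.84 (standard error 0.18, edgeR adjusted p = 0.00416) was smaller than the estimates for Vil1 and Pls1. The call was lost with the mouse as a replicate block (log2 fold change -0.85, adjusted p = 0.0117), without mice 12 and 15 (-0.98, adjusted p = 0.0106), and without any 1 of the GUCY2Chi libraries of mice 2, 7 and 14 or the GUCY2Cmed libraries of mice 2, 12, 14 and 15 (adjusted p from 0.0108 to 0.0148). It was also lost on library sizes alone (edgeR adjusted p = 0.0170) and with no filter (0.0118).

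Eps8, which encodes an actin capping and bundling protein of the microvillus tip (chromosome 6, 137477245 to 137654876), was at 69.1, 53.0, 58.2, 53.8 and 72.4 cpm in GUCY2Chi cells and at 157, 119.9, 87.0, 105 and 169 cpm in GUCY2Cmed cells. The GUCY2Chi libraries were close to each other (61.3 ± 8.90 cpm, SD, n = 5) and all lay under the lowest GUCY2Cmed library, that of mouse 12. Its log2 fold change was -1.06 (standard error 0.20, edgeR adjusted p = 0.00232). Without the GUCY2Chi library of mouse 7 the adjusted p was 0.0106, and on library sizes alone it was 0.0147.

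Ezr, which encodes ezrin, the linker of membrane proteins to the core (chromosome 17, 6738041 to 6782784), was at 195, 178, 293, 139.8 and 316 cpm in GUCY2Chi cells and at 1098, 702, 498, 648 and 960.5 cpm in GUCY2Cmed cells. Its pattern was that of Vil1, with mice 12 and 15 highest among the GUCY2Chi libraries and no overlap between the groups. Mean levels differed 3.48-fold, and the log2 fold change was -1.80 (standard error 0.30, edgeR adjusted p = 0.00105). Myo1a, which encodes the brush border class I myosin that tethers the core to the membrane along its sides (chromosome 10, 127705170 to 127720940), was at 138, 104, 181, 82.2 and 151 cpm in GUCY2Chi cells and at 788, 775, 355, 582 and 595 cpm in GUCY2Cmed cells. The lowest GUCY2Cmed library, that of mouse 12, still lay above the highest GUCY2Chi library, of the same mouse. Myo1a had the lowest log2 fold change of the 10 genes, -2.24 (standard error 0.28, edgeR adjusted p = 0.000187), and a 4.71-fold difference of means. Vil1, Ezr and Myo1a passed the threshold under all 23 alternatives run.

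Of the adhesion complex at the tips, Cdhr2, a cadherin that pairs with CDHR5 across neighbouring microvilli (chromosome 13, 54701461 to 54736662), was at 358, 386, 489, 406 and 456 cpm in GUCY2Chi cells and at 1346, 642, 538, 853 and 1284 cpm in GUCY2Cmed cells. The GUCY2Chi libraries were tight and the GUCY2Cmed libraries spread, with that of mouse 12 close to the GUCY2Chi library of the same mouse. The log2 fold change was -1.15 (standard error 0.28, edgeR adjusted p = 0.00720). The call was lost with the mouse as a replicate block (log2 fold change -1.07, adjusted p = 0.0286), without mice 12 and 15 (-1.30, adjusted p = 0.0125), and without any 1 of the 5 GUCY2Chi libraries or the GUCY2Cmed libraries of mice 2, 14 and 15 (adjusted p from 0.0105 to 0.0262). It was also lost on library sizes alone (edgeR adjusted p = 0.0239), with no filter (0.0114) and with at least 10 counts in every library (0.0130). In limma-voom with the replicate block the adjusted p was 0.0162.

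Its partner Cdhr5 (chromosome 7, 141269083 to 141276786) was at 947, 831, 1122, 1176 and 938 cpm in GUCY2Chi cells and at 2271, 1185, 1309.6, 1657 and 2159 cpm in GUCY2Cmed cells. The groups met without overlap, the GUCY2Cmed library of mouse 7 standing just over the GUCY2Chi library of mouse 14. The log2 fold change of -0.77 (standard error 0.25, edgeR adjusted p = 0.0267) did not pass. Ush1c, which encodes harmonin, the scaffold that holds the cadherin tails (chromosome 7, 46195350 to 46238503), was at 254, 237, 223, 263 and 173 cpm in GUCY2Chi cells and at 312, 377, 253, 328 and 350.1 cpm in GUCY2Cmed cells. Its groups overlapped, since the GUCY2Cmed library of mouse 12 lay under 2 GUCY2Chi libraries. It had the estimate nearest 0 of the 10 genes, a log2 fold change of -0.49 (standard error 0.18, edgeR adjusted p = 0.0448).

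Myo7b, which encodes the motor that carries the complex toward the tips (chromosome 18, 31959234 to 32036961), was at 50.7, 43.4, 28.0, 44.5 and 14.8 cpm in GUCY2Chi cells and at 91.3, 81.5, 43.0, 66.8 and 75.3 cpm in GUCY2Cmed cells. Mice 12 and 15, highest for Vil1, Ezr, Pls1, Myo1a and Cdhr2 among the GUCY2Chi libraries, were the lowest for Myo7b, and the groups overlapped at the GUCY2Cmed library of mouse 12. The log2 fold change was -0.98 (standard error 0.31, edgeR adjusted p = 0.0283), which missed the threshold. Of the 4 genes of the adhesion complex, 1 was thus called lower and 3 were not.

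**Figure D2:**
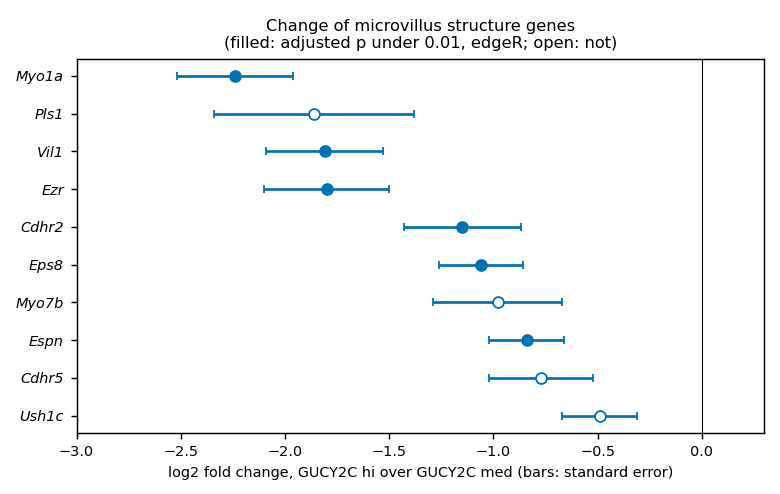
Log2 fold change of each microvillus gene, GUCY2Chi over GUCY2Cmed, with bars of 1 standard error and filled points where the edgeR adjusted p was under 0.01. Estimates run from -2.24 for Myo1a to -0.49 for Ush1c, and every bar lies under 0.

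Counts of each gene were divided by those of Vil1 in the same library, a ratio that library scaling cannot move, to see whether the genes changed by unequal amounts. In exact two-sided permutation tests of 5 libraries against 5, adjusted over the 9 ratios, 5 ratios passed 0.05 and all 5 were higher in GUCY2Chi cells. The genes of these 5 ratios were themselves lower in GUCY2Chi cells, by less than Vil1. The log2 ratio of Espn to Vil1 was -0.48 ± 0.32 in GUCY2Chi and -1.46 ± 0.22 in GUCY2Cmed cells (SD, n = 5 each), a difference of 0.98 (exact permutation p = 0.00794, adjusted p = 0.0238). That of Cdhr5 was 1.65 ± 0.45 against 0.56 ± 0.11, a difference of 1.09 (exact permutation p = 0.00794, adjusted p = 0.0238). The ratio of Cdhr2 differed by 0.76 with the same p-values, and in these 3 genes no library of one group reached the other group. Ush1c, with the highest difference of 1.33 (exact permutation p = 0.0159, adjusted p = 0.0357), and Eps8, with 0.80 (0.0238, adjusted 0.0429), were higher relative to Vil1 in 5 of 5 mice. The smallest p this design allows is 0.00794.

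For 4 genes the ratio to Vil1 did not pass. Ezr differed by 0.02 on the log2 scale (exact permutation p = 0.841), with ratios of -0.81 to -0.35 in GUCY2Chi and -0.90 to -0.32 in GUCY2Cmed cells, and the sign of this difference turned in 5 alternatives. Pls1 differed by -0.29 (exact permutation p = 0.421) and Myo1a by -0.41 (0.0952, adjusted 0.143), each lower relative to Vil1 in 4 of 5 mice. The ratio of Myo1a passed without the GUCY2Chi library of mouse 2 (-0.51, exact permutation test, adjusted p = 0.0357). With Ezr as the reference it was also lower in GUCY2Chi cells (-0.43, exact permutation test, adjusted p = 0.0238), and the same 5 genes were higher. Since Ezr differed from Vil1 by only 0.02, this reference is no independent check. Ratios to 1 reference share its counts and are not independent of each other. Myo7b differed by 0.77 (exact permutation p = 0.143), with an SD of 1.12 among GUCY2Chi libraries. Within mice, signs of 5 differences allow no p under 0.0625, so that 0 ratios could pass with a replicate block, and 3 mice against 3 without mice 12 and 15 allow none under 0.1. Leaving out 1 library left 3 or 4 of the 5 ratios past the threshold. Espn, Cdhr2 and Cdhr5 passed without any 1 library, and they alone of the 5 passed without any 1 of the GUCY2Chi libraries of mice 2, 7 and 14 or the GUCY2Cmed libraries of mice 2, 12, 14 and 15.

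The level that each gene kept in GUCY2Chi cells, as a percentage of its level in GUCY2Cmed cells of the same mouse, is given beside the same percentage for the summed enterocyte markers. The enterocyte sum stood at 6.21%, 5.93% and 7.02% in mice 2, 7 and 14, and at 45.3% and 42.3% in mice 12 and 15. Vil1 stood at 17.2%, 29.0% and 20.2% in the first 3 mice and at 57.4% and 30.3% in the other 2. Pls1 and Myo1a, the genes that kept the least by median (17.1% and 17.5%), also stood highest in mice 12 and 15, at 49.0% and 40.9% for Pls1 and at 50.9% and 25.4% for Myo1a.

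Ush1c kept the most by median, 80.3%, with a range of 49.4% to 88.4%. Cdhr5 kept a median of 70.2% (41.7% to 85.7%), Myo7b 55.5% (19.6% to 66.6%), Espn 53.2% (45.9% to 74.5%), Cdhr2 47.5% (26.6% to 90.8%), Eps8 44.2% (42.8% to 66.9%) and Ezr 25.4% (17.7% to 58.9%). Espn, Cdhr5, Ush1c and Eps8 kept a higher percentage than the enterocyte sum in 5 of 5 mice, and the other 6 genes in 4 of 5, the exception being mouse 15 for each of them. That sum is weighted toward its most abundant genes, such as Apoa1 and Fabp2 (means of 25147 and 15425 cpm in GUCY2Cmed cells). Single markers varied. The GUCY2Chi mean was 0.681 of the GUCY2Cmed mean for Sis and 0.507 for Slc15a1, within the span of the microvillus genes. For the 24 markers the median log2 fold change was -2.23, against -1.11 for the 10 microvillus genes. Whether the enterocyte transcript in mice 12 and 15 accounts for the microvillus levels there was not tested.

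**Figure D3:**
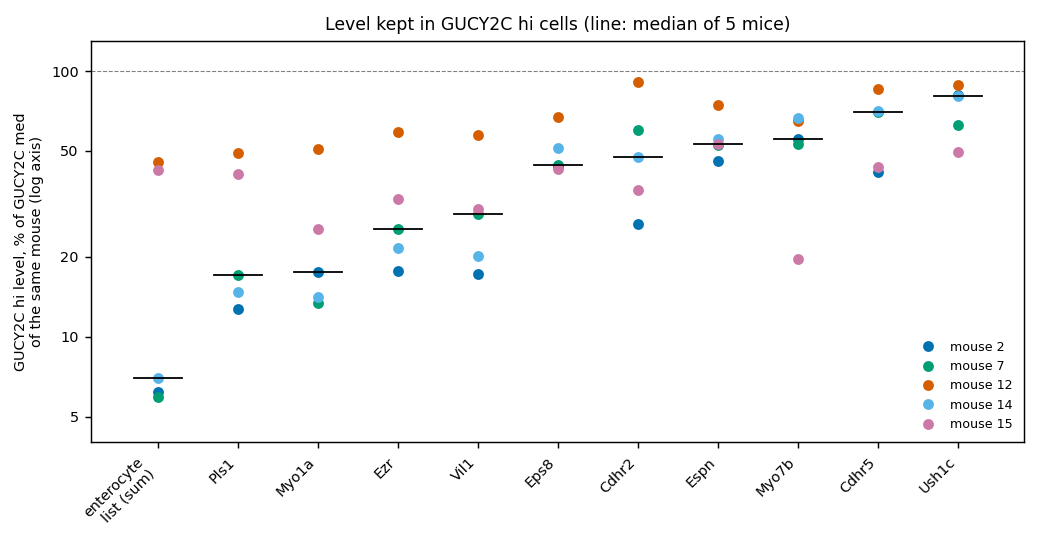
Level in GUCY2Chi cells as a percentage of the GUCY2Cmed level of the same mouse (log axis), for the summed enterocyte markers and each microvillus gene, ordered by the median (line). The enterocyte sum lies at 5.93% to 7.02% in 3 mice and near the microvillus genes only in mice 12 and 15.

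Levels were compared between genes per kilobase of the gene length in the deposited table. In GUCY2Cmed cells Cdhr5 led with 627 cpm per kb, followed by Pls1 (365), Vil1 (325), Ezr (237), Cdhr2 (226), Myo1a (167), Ush1c (84.1), Espn (49.8), Myo7b (10.8) and Eps8 (10.3). The 5 libraries of neighbours in this order overlapped except between Ush1c and Espn and between Espn and Myo7b. In GUCY2Chi cells Cdhr5 again led with 366 cpm per kb, and its lowest library, 304, lay above the highest of Cdhr2, 118. Cdhr2 and Pls1 followed at 101 each, although Pls1 ranged from 35.6 to 207 among the mice, then Vil1 (92.9), Ezr (68.2), Ush1c (59.7), Myo1a (35.4), Espn (27.8), Myo7b (5.48) and Eps8 (4.96). Here neighbours overlapped except Cdhr5 with Cdhr2 and Espn with Myo7b. The deposited FPKM rest on other lengths, 1930 bases for Eps8 where the table lists 12355 and 1233 for Vil1 where it lists 3551. By FPKM Cdhr5 was also first in both groups (775 and 1101 in GUCY2Chi and GUCY2Cmed cells), whereas Myo7b was last (6.03 and 9.87) and Vil1 second (294 and 850.0). Cdhr2, level with Pls1 by cpm per kb in GUCY2Chi cells, was at place 7 there by FPKM (112) and at place 6 in GUCY2Cmed cells (205), so that its place depends on the length used.

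A wider list of 47 other genes of microvilli, the terminal web and apical delivery was counted in the same fit. Of 46 tested, 14 were lower, 4 were higher (Pls3, Vill, Msn and Krt18) and 28 did not pass, with a median log2 fold change of -0.36. Over all genes tested 8.79% were lower and 13.9% higher. Vill passed the filter on low counts only through GUCY2Chi libraries, which fixed its direction, and without it 3 were higher. Among the 46, every GUCY2Chi library lay below every GUCY2Cmed library for 18 genes and above for 3, against 13.2% and 16.7% of all genes tested. With the mouse as a replicate block 9 were lower and 2 higher, against 4.96% and 8.24% of all genes. Without 1 library 7 to 14 were lower and 2 to 6 higher, against 3.32% to 10.4% and 10.6% to 16.5% of all genes. Lower counts of 7 to 9 came without the GUCY2Chi library of mouse 2, 7 or 14 or the GUCY2Cmed library of mouse 2 or 15. The higher count was 6 without the GUCY2Chi library of mouse 15, 3 without the GUCY2Cmed library of mouse 7, and 2 without any other library.

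Both partners of the adhesion complex in the list, Anks4b and Calml4, were lower, Anks4b at 46.0 ± 6.20 cpm against 78.7 ± 14.9 cpm (SD, n = 5 each; log2 fold change -0.78, edgeR adjusted p = 0.00388). Of 8 genes that shape tips and membrane, 4 were lower and 0 higher, with Eps8l2, a relative of Eps8, at 67.8 ± 13.1 cpm against 141 ± 28.0 cpm (log2 fold change -1.05, edgeR adjusted p = 0.00181). Of 5 other myosins counted, 2 were lower. Myo1d, a class I myosin, stood at 26.4 ± 9.32 cpm against 79.9 ± 17.7 cpm (log2 fold change -1.60, edgeR adjusted p = 0.000632). Of 7 membrane linkers, 3 were lower and 1 higher. Slc9a3r1, which encodes the scaffold NHERF1 that binds ezrin, stood at 397, 304, 800.3, 349.5 and 647 cpm in GUCY2Chi cells and at 1695 to 2154 cpm in GUCY2Cmed cells, with mice 12 and 15 again highest (log2 fold change -1.99, edgeR adjusted p = 0.000567).

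Of 9 tested genes for actin, its capping proteins and bundler paralogs, 1 was lower and 2 were higher. The lower was Capza1, a subunit of the barbed-end capping protein, at 50.2 ± 9.67 cpm against 87.3 ± 14.2 cpm (log2 fold change -0.80, edgeR adjusted p = 0.00433). It shares bases with St7l on the other strand. Of 10 genes of the terminal web, the actin and keratin mesh under the microvilli, 1 was lower and 1 higher. Myh14, a nonmuscle myosin II heavy chain, stood at 35.9 ± 12.5 cpm against 97.0 ± 39.6 cpm (log2 fold change -1.43, edgeR adjusted p = 0.00607). Krt18, a keratin, stood at 1449, 1065, 765, 1104 and 377 cpm in GUCY2Chi cells against 263 to 579 cpm, with mouse 15 inside the GUCY2Cmed range (log2 fold change 1.45, edgeR adjusted p = 0.00876). Of 5 genes of apical delivery, Rab8a, a small GTPase of vesicle transport, was lower at 253 ± 75.4 cpm against 566 ± 61.0 cpm (log2 fold change -1.16, edgeR adjusted p = 0.00250), and 0 were higher.

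**Figure D4:**
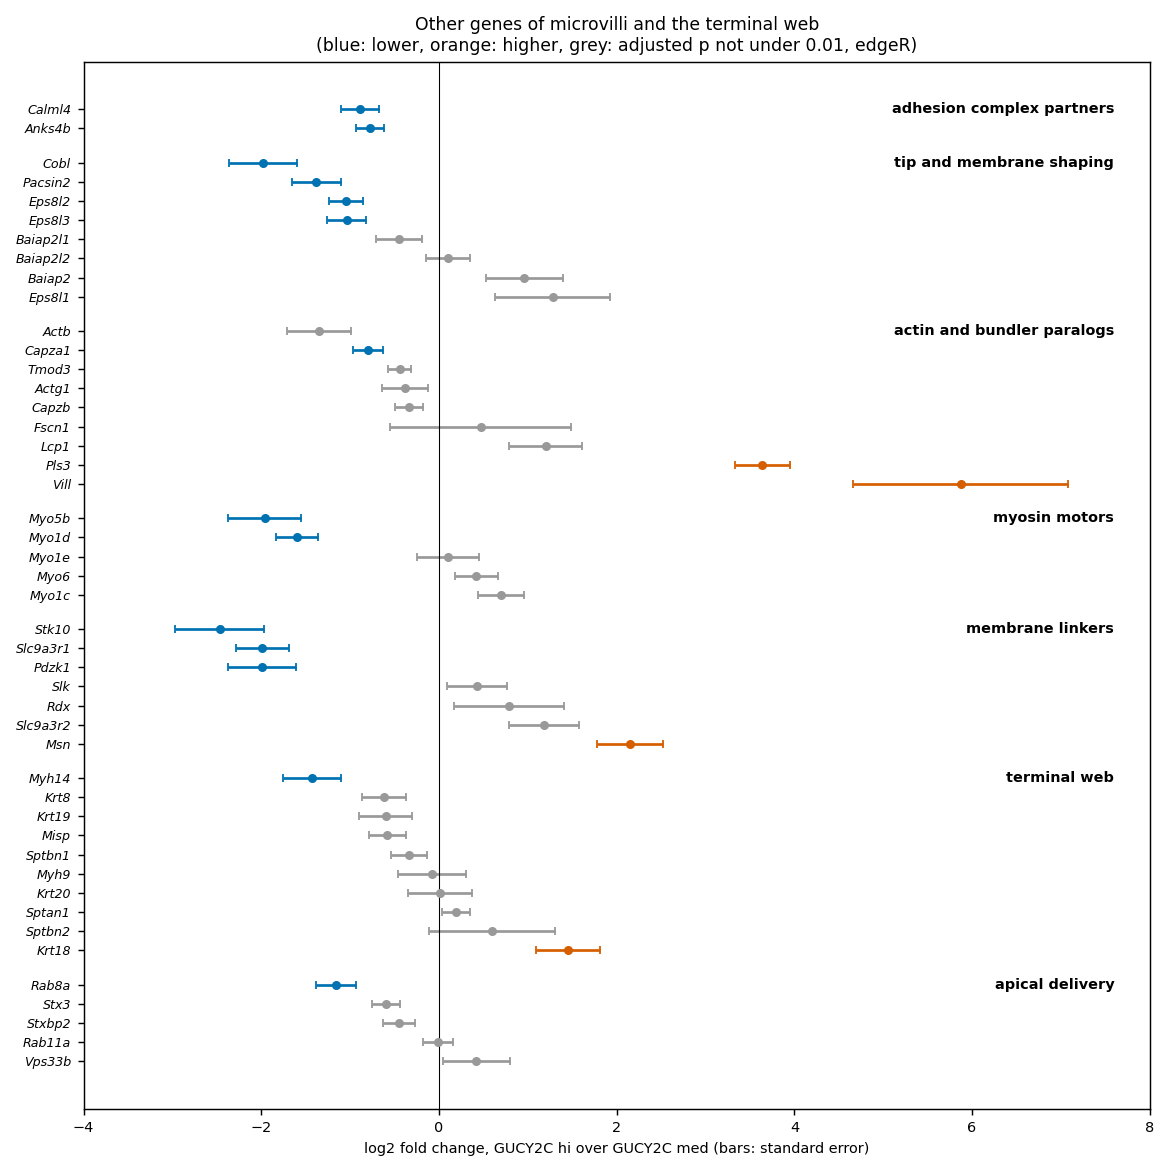
Log2 fold change of the 46 tested genes of the wider list, GUCY2Chi over GUCY2Cmed, by group, with bars of 1 standard error (blue lower, orange higher, grey not past an edgeR adjusted p of 0.01). Both directions occur among bundler paralogs, linkers and the terminal web, and 14 genes are blue and 4 orange.

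Pls3 and Msn are paralogs of 2 of the 10 genes. Pls3 encodes plastin 3, the plastin of many tissues, and stood at 129, 98.5, 82.1, 192 and 75.3 cpm in GUCY2Chi cells against 10.8, 5.94, 10.7, 11.7 and 7.02 cpm in GUCY2Cmed cells of mice 2, 7, 12, 14 and 15. Every GUCY2Chi library lay far above every GUCY2Cmed library, a 12.5-fold difference of means and a log2 fold change of 3.64 (standard error 0.31, edgeR adjusted p = 1.6e-05). Msn, which encodes moesin, a close relative of ezrin, stood at 2.17 to 3.16 cpm against 0.241 to 0.770 cpm (log2 fold change 2.15, edgeR adjusted p = 0.00124). For Pls3 the lowest GUCY2Chi libraries were those of mice 12 and 15.

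Set beside their paralogs per gene length, in pairs chosen after their values were seen and so with no test, Pls3 stood at 62.8%, 65.4% and 72.4% of Pls1 in GUCY2Chi cells of mice 2, 7 and 14, and at 12.9% and 8.59% in mice 12 and 15. In GUCY2Cmed cells it stood at 0.327% to 0.822% of Pls1. Moesin transcript remained a small addition to that of ezrin, at 0.435% to 1.18% in GUCY2Chi and at 0.0178% to 0.0753% in GUCY2Cmed cells. These percentages use the listed gene lengths. The deposited FPKM rest on other lengths (1562 bases for Pls1 where 3890 is listed), so the size of the percentages depends on the length used. Another length would scale both groups alike. Vill, a relative of villin named after its values were seen because it is 1 of the 4 genes called higher, had 0 counts in every GUCY2Cmed library and 1 to 14 counts in the GUCY2Chi libraries. Its GUCY2Chi mean of 0.529 cpm was 2.17-fold a floor of 3 counts in each GUCY2Cmed library. That floor covers counting error in GUCY2Cmed cells only, and the GUCY2Chi library of mouse 15 (0.063 cpm) lay below it, so the fold is no firm bound.

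**Figure D5:**
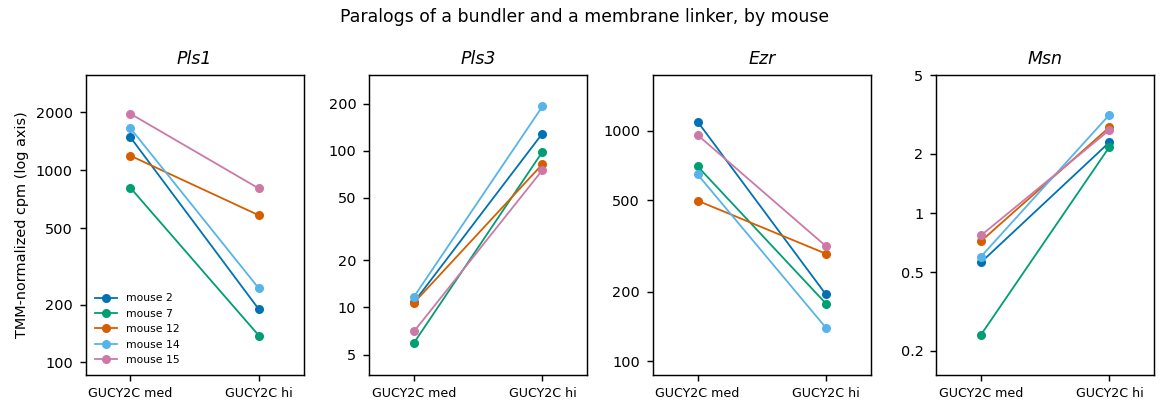
TMM-normalized cpm (log axis) of Pls1 and Ezr and of their paralogs Pls3 and Msn in GUCY2Cmed and GUCY2Chi cells, with a line for each mouse. The lines of the paralogs rise where those of the microvillus genes fall, at levels that differ between panels.

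The 10 genes were then averaged, each scaled to a mean of 0 and an SD of 1 over the 10 libraries, and other genes were ranked by the Pearson correlation of their log2 cpm with this profile. Since the profile separates the 2 groups and its points share library and depth, the correlations are a description. The nearest were Cask, a membrane scaffold kinase (r = 0.983, n = 10 libraries; 16.6 cpm in GUCY2Chi against 29.1 cpm in GUCY2Cmed cells), Dtx3l, a ubiquitin ligase (0.982), Dync1li1, a subunit of cytoplasmic dynein (0.982), Sh3d19 (0.981) and Lxn, a carboxypeptidase inhibitor (0.980). Among the 100 nearest genes were 1 of the wider list, Myo1d, and 1 enterocyte marker, Apob. Within the 10 genes, the correlation of each with the mean of the other 9 was lowest for Myo7b (0.67) and Ush1c (0.73) and highest for Vil1 (0.96).

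Some of these values rest on reads that could be counted for more than 1 gene, since whether counting used strand is not given in the sources used here. Vil1 and Ezr share a few bases at an end with Usp37 and Sytl3 on the other strand. Ush1c holds Gm9860 (median 13 counts) and Myo7b holds the antisense gene Gm16344 (median 0 counts). Actb, Actg1, Krt8 and Krt18 of the wider list have many copies and pseudogenes, so that their counts are uncertain.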

How the data were processed

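RNA of sorted GUCY2Chi and GUCY2Cmed cells was measured in 10 libraries, 5 per group, grouped by the sample labels. The authors deposited unscaled read counts per gene, made by their sequencing provider after alignment with STAR; the counter and the strand setting are not given in the sources used here. The deposited FPKM were used only to order levels. The submitters' processing notes name mm9, but the positions of 10 of the 10 microvillus genes lie within 10000 bases of GRCm38.p6 and 0 within that of NCBIM37, so positions are given on GRCm38. A further 10 per-sample columns of normalized values, and the authors' own comparison (limma 3.40.6 and edgeR 3.26.8: fold changes, p-values), were not used.

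The tools were edgeR 4.0.16, with DESeq2 1.42.0 and limma 3.58.1 as alternatives (R 4.3.3), and scipy 1.17.1, numpy 2.4.6, pandas 2.3.3 and matplotlib 3.10.9 (Python 3.11.15). A gene entered the fit with over 0.5 cpm in 3 or more libraries, which 15703 of 54532 genes had. The test was the quasi-likelihood one of edgeR, on TMM factors and with no mouse term, and genes were called where p, adjusted over all genes by Benjamini and Hochberg's method, was under 0.01. The biological coefficient of variation came to 0.458. Standard errors of log2 fold changes were computed back from this test. Each is the size of the log2 fold change divided by the square root of its F statistic. Ratios to Vil1 used counts plus 0.5. On simulated data the edgeR test called most of the larger planted changes, fewer than first required, and few of the smaller ones; the requirement was loosened after this was seen, and a missed call of a small change says little. The 10 genes, other gene lists and tests were chosen with earlier results of these data known. Named genes are those 10, in each of 7 groups of the wider list the called gene with the smallest adjusted p in each direction, and the 5 genes most correlated with their mean. Results for 1 gene of the wider list are not reported here. Of 4 promoter motifs searched, 1 outside the planned list was dropped and is not reported.

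Both gates were applied to the same 5 mice, and same-numbered libraries were read as pairs. The correlations of the deviations of same-numbered libraries from their group means were -0.11, -0.223, 0.272, -0.124 and 0.0607 for mice 2, 7, 12, 14 and 15. Since no source names the animal behind a number, pairing rests on the numbers in the labels. Alternatives changed the tool (limma-voom, voomWithQualityWeights, DESeq2), added the mouse as a replicate block (edgeR, limma-voom), changed the scaling (library size, RLE, upper quartile, or removal of the 50 genes with most counts), the filter (none, or 10 counts in each library) and the threshold (0.05), and left out each library singly or mice 12 and 15. Ratios were also taken with a pseudocount of 1, to Ezr, and within mice.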

Additional observations from a re-analysis of the deposited data

How the results depend on the processing

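The log2 fold change of each of the 10 microvillus genes was below 0 under all 23 alternatives, and 0 genes were called higher under any. Vil1, Ezr and Myo1a were called under 23 of 23, Eps8 under 21, Espn under 12, Cdhr2 under 9, Pls1 under 8, Cdhr5 under 3, and Myo7b and Ush1c under 2 each. The count of 6 called lower, against 8.79% of all genes tested, became 10 with DESeq2 (14.2% of all genes) and at an adjusted p under 0.05 (17.6%), and 3 on library sizes alone (3.55%), and it ran from 3 to 6 without 1 library. With the mouse as a replicate block in edgeR the wider list had 9 genes lower and 2 higher in place of 14 and 4, and the pairing changed no other count of calls in edgeR or limma-voom by over 1.5 times. On library sizes alone 6 of the wider list were lower. With at least 10 counts in every library 2 were higher, against 14.2% of all genes. Vill and Msn, which had under 10 counts in GUCY2Cmed libraries, were not tested under that filter, so their calls were removed with it. Without 1 library 7 to 14 were lower and 2 to 6 higher. Of the ratios to Vil1, 0 passed within mice (replicate block) and 0 without mice 12 and 15, designs too small to pass, and 3 to 4 without 1 library. The ratio of Ezr to Vil1 turned to -0.02 without mice 12 and 15 and ran from -0.06 to 0.09 without 1 library. The causes were not tested. A missed call does not show equal levels.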

Other observations

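Other genes of the wider list moved as far as the microvillus genes named so far; they were picked after their values were seen. Cobl, an actin nucleator, stood at 11.9 ± 6.14 cpm in GUCY2Chi against 47.2 ± 17.8 cpm in GUCY2Cmed cells (SD, n = 5 each; log2 fold change -1.98, edgeR adjusted p = 0.00236). Pdzk1, a scaffold of the brush border membrane, stood at 73.6 ± 43.4 cpm against 293 ± 79.1 cpm (log2 fold change -1.99, edgeR adjusted p = 0.00232). Stk10, a kinase that phosphorylates ezrin and its relatives, stood at 1.69 ± 0.860 cpm against 9.38 ± 5.50 cpm (log2 fold change -2.47, edgeR adjusted p = 0.00311). All 3 were lower in 5 of 5 mice with no overlap between the groups.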
